A study of Mus musculus with 9 samples.

Results

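The genes described here encode the subunits of AMPA and kainate receptors, the ionotropic glutamate receptors outside the NMDA class. All 9 were found on the array, Gria1 to Gria4 for AMPA receptors and Grik1 to Grik5 for kainate receptors, among 22180 genes that had a probe set with a single gene symbol. Each of the 9 had 1 such probe set. RNA levels were measured on Affymetrix mouse arrays in cultures of embryonic cortex from wild-type CD1 mice, an outbred strain, with 3 biological replicates of each of 3 groups. The co-culture held precursors from embryonic day 13 that had been kept for 1 day on neurons from embryonic day 16, themselves cultured for 4 days before. The neuron cultures came from embryonic day 16 and were kept for 5 days in total. A label of 4 days is read here as the time before co-culture. The precursor cultures came from embryonic day 13 and were kept for 1 day. No agent or mutation is named for any group. Age of the embryo and days in vitro thus also separate the neuron and precursor cultures and cannot be told apart from cell type, and the co-culture RNA is a mixture from both kinds of cell.

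AMPA receptors carry most of the fast excitatory current at cortical synapses, and their assembly from different subunits sets how the channel opens, desensitises and is trafficked. The Gria2 subunit sets calcium entry, because editing of its RNA in the pore region makes the channels that contain it nearly impermeable to calcium. Kainate receptors act on both sides of the synapse. Grik1, Grik2 and Grik3 encode the low-affinity subunits, which can form channels by themselves, and Grik4 and Grik5 the high-affinity subunits, which need a low-affinity partner. Glutamate receptors of these classes are also known to be present before synapses form, in young neurons and in precursors of the developing cortex.

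Promoter windows are shown for Gria2 and Grik3, since Gria2 is the subunit that limits calcium entry and Grik3 was the member that ran in the opposite direction to the other 8. Of the 9 members 6 had a window in the RefSeq promoter table of build GRCm38.p6 (Gria2, Gria4, Grik2, Grik3, Grik4 and Grik5), and the 250 bases before the annotated start were searched on both strands for 2 motifs chosen after these windows had been seen. The first was the core of RE1, the site known to be bound by the repressor REST, searched as AGCACC and GGACAG with any 2 bases between them. The second was the GC box GGGCGG, a site known for Sp-family factors. The windows are printed 5′ to 3′ on the strand of the gene, with capitals for the RE1 core in Gria2, at chr3:80802836-80803085 on the minus strand, and for the GC boxes in Grik3, at chr4:125490446-125490695 on the plus strand.
Gria2: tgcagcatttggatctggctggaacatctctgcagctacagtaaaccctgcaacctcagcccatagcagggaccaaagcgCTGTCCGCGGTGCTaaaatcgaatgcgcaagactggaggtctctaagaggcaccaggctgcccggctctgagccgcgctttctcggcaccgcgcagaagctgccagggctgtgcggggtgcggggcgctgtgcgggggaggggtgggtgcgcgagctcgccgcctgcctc
Grik3: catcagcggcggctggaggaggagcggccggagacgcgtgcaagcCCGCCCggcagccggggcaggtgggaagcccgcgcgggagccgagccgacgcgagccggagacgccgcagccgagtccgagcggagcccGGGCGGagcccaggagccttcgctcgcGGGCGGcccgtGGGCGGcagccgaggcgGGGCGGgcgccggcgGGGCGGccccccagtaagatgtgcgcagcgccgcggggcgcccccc
The RE1 core was found in Gria2 alone among the 6 windows, at positions -170 to -157 relative to the start and on the strand opposite to the gene (capitals), and 15 of all 32851 windows (0.0457%) held it. Grik3 held 6 GC boxes, a count reached by 0.886% of all windows, against 2 in Grik5 and 1 in Grik4. Gria2, Gria4 and Grik2 held 0, and 32.7% of all windows held at least 1. The windows of Grik3 and Gria2 were 82.0% and 64.8% G and C, against a median of 52.4% over all windows. These matches describe the letters of the windows and say nothing about binding in these cultures.

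Neurons had higher RNA levels than precursors for all 4 AMPA subunits and for 4 of the 5 kainate subunits, and a lower level of Grik3. The largest differences were those of Gria1 and Grik1, each about 4-fold, and the smallest rise was that of Grik5. Levels are log2 values per probe set after RMA, a standard normalisation and summary of array probes, so that 1 unit is a doubling; a level of 1 gene cannot be set against that of another. On all 9 arrays each member exceeded the median probe set, and 13012 of all 22180 genes did so on at least 3 arrays. Grik1 in precursors lay at 7.04 to 7.11, little above the array medians of 6.75 to 6.79. Differences were tested with limma in 1 fit over the 13012 genes that passed a filter on low values, and were called at a Benjamini-Hochberg adjusted p under 0.05. By that rule 8 members were higher in neurons than in precursors, where 28% of all tested genes were, and 1 was lower, where 35.2% of all tested genes were. Neuronal markers moved with the members: 6 of 7 were higher in neurons. The summed log2 level of a list is the log2 of its levels added on the linear scale, so the brightest probe sets weigh most. For the neuronal markers it was 14.46 to 14.47 in the co-culture, 14.88 to 14.94 in neurons and 14.26 to 14.27 in precursors. The part of these markers' cells in the members' differences was not tested. The median log2 difference was 1.08 over the 9 members and -0.020 over all tested genes. Of the 9 members 5 were at least 2-fold higher, as were 5.49% of all tested genes.

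**Figure D1:**
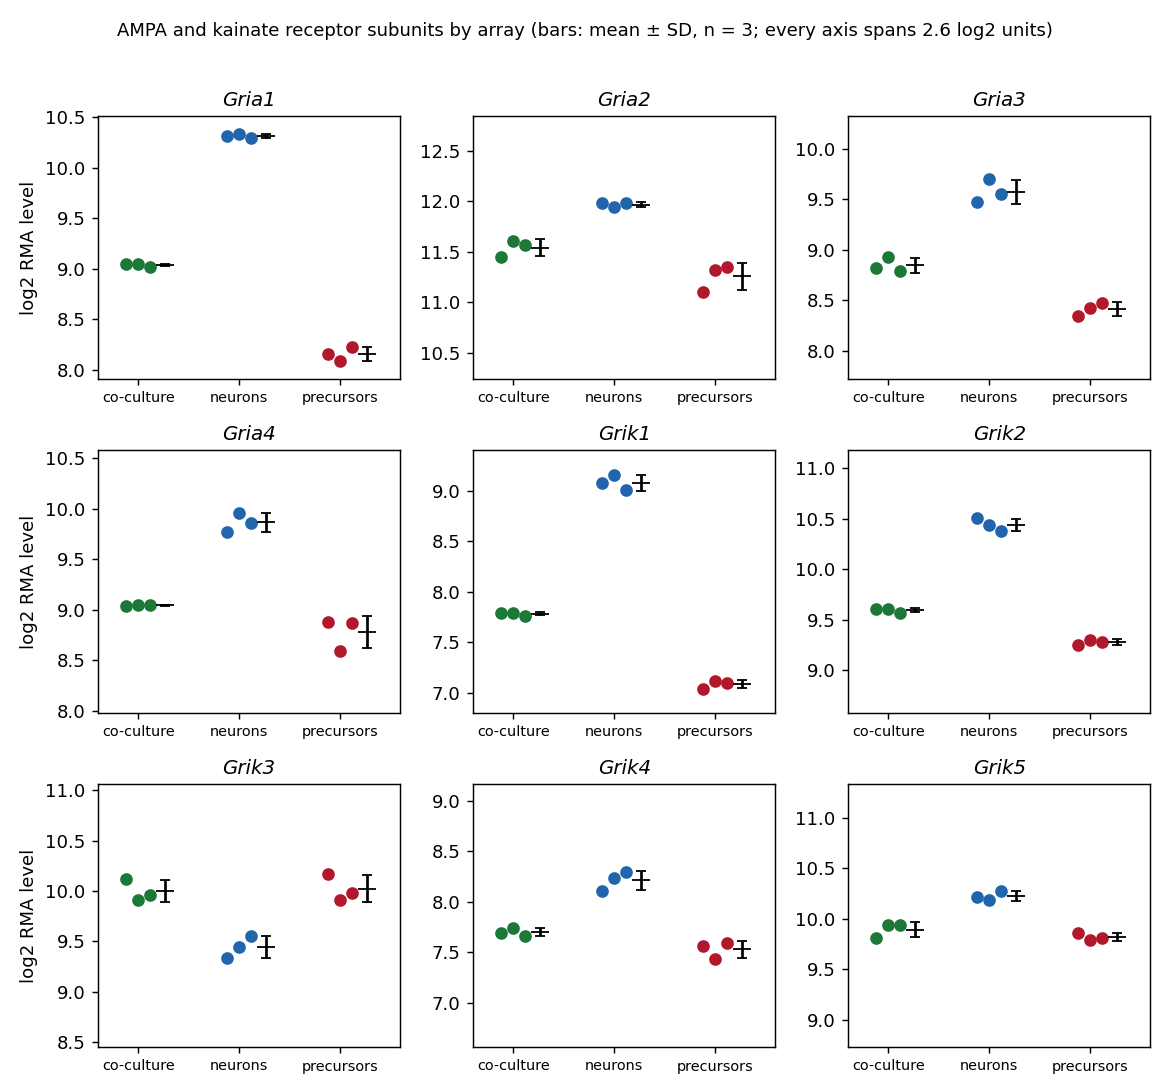
Log2 RMA level (vertical axes, each spanning the same number of log2 units) of the 9 subunit genes in the co-culture, neuron and precursor arrays; points are arrays and bars give the mean ± SD (n = 3). In 8 panels the neuron arrays lie highest, and in the Grik3 panel they lie lowest.

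Gria1, whose subunit is added to synapses when they are strengthened, showed the widest separation of any member. Its level was 9.04, 9.04 and 9.02 in the co-culture, 10.32, 10.33 and 10.29 in neurons and 8.15, 8.08 and 8.22 in precursors. The 3 groups did not overlap, and the co-culture lay between the others. Neurons exceeded precursors 4.48-fold (log2 difference 2.16, SE 0.0455, adjusted p = 1.12e-09, limma).

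Gria2, whose edited form keeps calcium out, was at 11.45, 11.61 and 11.57 in the co-culture, 11.98, 11.94 and 11.98 in neurons and 11.10, 11.32 and 11.35 in precursors. Precursor replicate 1 was the lowest array, and the groups did not overlap. The difference between neurons and precursors was 1.64-fold (0.71, SE 0.0711, adjusted p = 1.29e-05), the smallest of the 4 AMPA subunits.

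Gria3, an X-linked AMPA subunit gene, was at 8.82, 8.93 and 8.79 in the co-culture, 9.47, 9.70 and 9.55 in neurons and 8.34, 8.42 and 8.48 in precursors. Gria4, whose product forms rapidly gating receptors and is known from early development and from interneurons, was at 9.04 in each of the co-culture arrays, at 9.77, 9.96 and 9.86 in neurons and at 8.88, 8.59 and 8.86 in precursors. For both genes the neuron arrays stood clear of the rest, and precursor replicate 2 was the lowest array for Gria4. Neurons exceeded precursors 2.24-fold for Gria3 (1.16, SE 0.0688, adjusted p = 3.28e-07) and 2.12-fold for Gria4 (1.08, SE 0.0792, adjusted p = 1.41e-06).

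The differences of the AMPA subunits were also set against each other. Within each array the level of Gria1 was set relative to that of Gria2, which removes whatever is common to the array. The size of such a ratio has no meaning between probe sets. Its change between groups can be read only as far as both probe sets respond alike to RNA amount, which was not tested. Gria1 relative to Gria2 was higher in neurons than in precursors by 1.45 log2 units, with group means of -1.65 ± 0.041 in neurons and -3.10 ± 0.15 in precursors (SD, n = 3). The same change was 0.45 for Gria3 and 0.37 for Gria4. In all 3 ratios the neuron arrays lay above the precursor arrays without overlap, though Gria4 relative to Gria2 came close, with a highest precursor value of -2.22 and a lowest neuron value of -2.20. The exact two-sided permutation test gave p = 0.1 for each ratio (0.1 adjusted over the 3), which is the smallest p that 3 against 3 arrays allow, so the design could not reach 0.05.

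**Figure D2:**
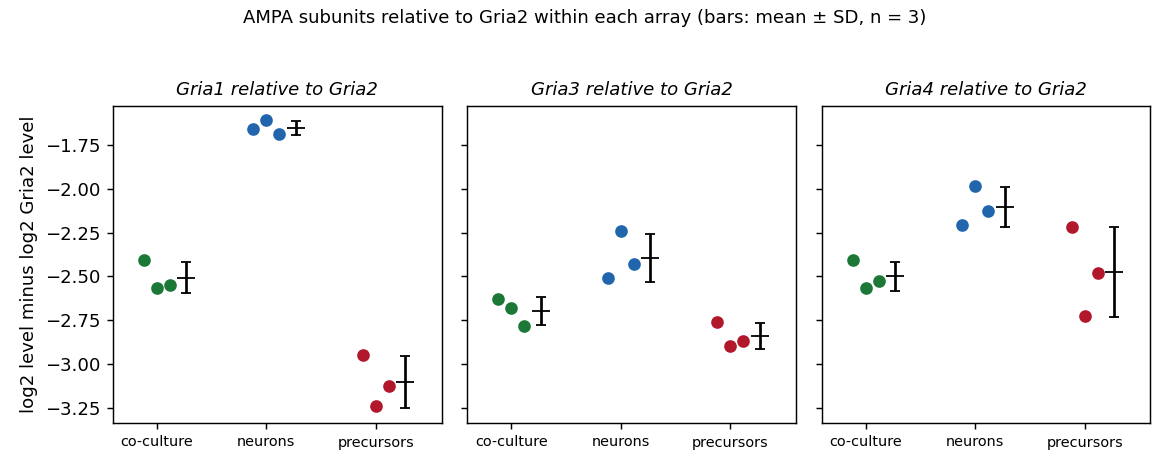
Log2 level of Gria1, Gria3 and Gria4 minus that of Gria2 in the same array (vertical axis, log2 units) for co-culture, neuron and precursor arrays; points are arrays and bars give the mean ± SD (n = 3). The neuron and precursor points are farthest apart for Gria1, by 1.45 on average, and nearly touch for Gria4.

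Among the low-affinity kainate subunits Grik1 and Grik2 were higher in neurons and Grik3 was lower. Grik1, which is known from interneurons of the cortex, was at 7.79, 7.79 and 7.76 in the co-culture, 9.07, 9.16 and 9.003 in neurons and 7.04, 7.11 and 7.10 in precursors. Its groups did not overlap, and the rise in neurons over precursors was 3.99-fold (1.99, SE 0.0492, adjusted p = 1.78e-09). Grik2, the main kainate subunit of many principal neurons, was at 9.61, 9.61 and 9.57 in the co-culture, 10.50, 10.44 and 10.38 in neurons and 9.25, 9.30 and 9.28 in precursors. It was 2.24-fold higher in neurons than in precursors (1.16, SE 0.0449, adjusted p = 1.93e-08).

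Grik3 encodes a low-affinity subunit of low glutamate sensitivity. Its level was 10.12, 9.91 and 9.96 in the co-culture, 9.34, 9.45 and 9.55 in neurons and 10.17, 9.91 and 9.98 in precursors. The neuron arrays lay below all others, while the co-culture and precursor arrays overlapped. Grik3 was 1.49-fold lower in neurons than in precursors (-0.57, SE 0.0849, adjusted p = 2.07e-04). Markers of radial precursors and of cycling cells ran the same way. All 8 and all 4 tested genes of these lists were called lower in neurons, as were 35.2% of all tested genes. So were all 4 intermediate progenitor and all 3 tested endothelial markers. Of 5 tested excitatory neuron markers 2 were lower, Tbr1 (-0.95) and Bcl11b (-0.41), and 2 higher. Of 8 tested interneuron markers 4 were lower and 4 higher. The summed log2 level of the radial precursor list was 14.10 to 14.16 in the co-culture, 13.21 to 13.43 in neurons and 14.14 to 14.23 in precursors. The part of any of these cells in the Grik3 result was not tested.

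Both high-affinity subunits were higher in neurons. Grik4 was at 7.69, 7.74 and 7.66 in the co-culture, 8.11, 8.23 and 8.30 in neurons and 7.57, 7.43 and 7.59 in precursors. Grik5, which pairs with Grik2 in many brain receptors, was at 9.81, 9.94 and 9.94 in the co-culture, 10.22, 10.18 and 10.28 in neurons and 9.86, 9.79 and 9.81 in precursors. Neuron arrays were highest for both genes, without overlap. Neurons exceeded precursors 1.61-fold for Grik4 (0.68, SE 0.0623, adjusted p = 6.81e-06) and 1.33-fold for Grik5 (0.41, SE 0.0511, adjusted p = 6.54e-05). In bulk RNA such as this, fewer cells of a type and less RNA per cell cannot be told apart.

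**Figure D3:**
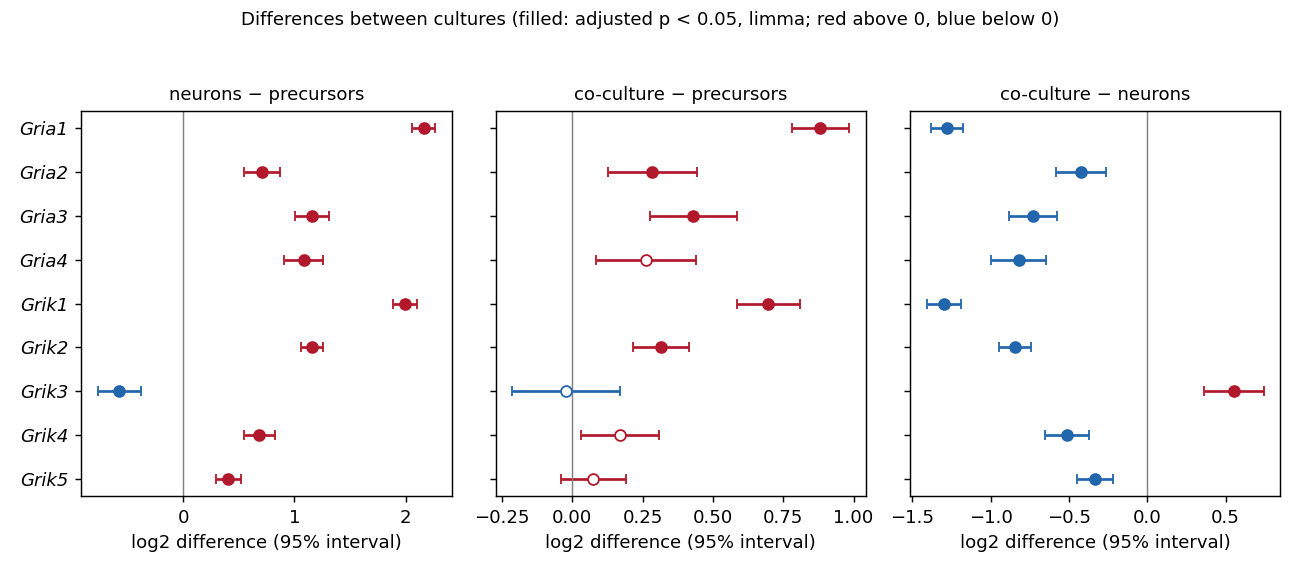
Log2 differences (horizontal axes) of the 9 subunit genes between neurons and precursors, the co-culture and precursors, and the co-culture and neurons; points are limma estimates, bars their 95% intervals, and filled points have an adjusted p under the threshold. Grik3 lies on the opposite side of 0 from the other 8 in both panels that involve neurons.

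Against precursors alone, the co-culture had higher levels of Gria1, Gria2, Gria3, Grik1 and Grik2, and neuron RNA is part of that sample. Of the 9 members 5 were higher in the co-culture, where 8.22% of all tested genes were, and 0 were lower, where 0.2% were. At an unadjusted p under 0.05 in limma 7 were higher and 0 lower. Gria1 was 1.84-fold higher (log2 difference 0.88, SE 0.0455, adjusted p = 3.32e-06) and Grik1 1.62-fold higher (0.70, SE 0.0492, adjusted p = 2.13e-05). Gria3 was higher by 0.43 (adjusted p = 0.00351) and Grik2 by 0.32 (adjusted p = 0.00176). These calls held under all 18 alternatives, with adjusted p values up to 0.0208 for Gria3.

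Gria2 was higher in the co-culture by 0.29 (SE 0.0711, adjusted p = 0.0368), and that call rests on a narrow margin. It did not pass without neuron replicate 1 (0.0572) or 3 (0.0541), without precursor replicate 1 (0.0781) or 2 (0.0583), or without co-culture replicate 2 (0.155) or 3 (0.116). Nor did it pass without the filter (0.0768), with only the 2 groups compared (0.0710) or with arrays centred on the tested genes (0.136). Over all alternatives its adjusted p lay between 0.0172 and 0.155. Gria4 differed by 0.26 (95% interval 0.083 to 0.44, adjusted p = 0.0856) and Grik4 by 0.17 (0.029 to 0.31, adjusted p = 0.166), although their co-culture and precursor arrays did not overlap. Gria4 passed with a filter at the 75th percentile (0.0454) and with array weights (0.0358), and its adjusted p ranged from 0.0358 to 0.220. Grik5 differed by 0.075 (-0.040 to 0.19, adjusted p = 0.550) and Grik3 by -0.022 (-0.21 to 0.17, adjusted p = 0.948), and the arrays of the 2 groups overlapped for both.

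Values of 2 co-culture arrays were exactly equal for 3 members, Gria1 and Grik1 in replicates 1 and 2 and Gria4 in replicates 2 and 3. Any 2 arrays of a group were equal for between 1.64% and 4.43% of all probe sets. The spread between co-culture arrays is therefore small for these genes, and the tests rest on the spread over all 3 groups.

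Against neurons alone, the co-culture was lower for 8 members, where 24.9% of all tested genes were lower, and higher for Grik3, where 35.7% were higher. This comparison shares its arrays with the others. The falls were 2.46-fold for Grik1 (-1.30, SE 0.0492, adjusted p = 5.41e-08) and 2.43-fold for Gria1 (-1.28, SE 0.0455, adjusted p = 4.06e-08). Grik2, Gria4 and Gria3 differed by -0.85, -0.82 and -0.73, with adjusted p values up to 1.36e-05. Grik4, Gria2 and Grik5 differed by -0.51, -0.43 and -0.33, with adjusted p values up to 5.39e-04. Grik3 was higher by 0.55 (SE 0.0849, adjusted p = 3.19e-04).

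The order of the groups was thus neurons, co-culture and precursors from high to low for Gria1, Gria2, Gria3, Grik1 and Grik2, with each step past the threshold, though the last step of Gria2 only narrowly. For Gria4, Grik4 and Grik5 neurons were highest and the co-culture and precursors were not separated by the test. For Grik3 the co-culture and precursors were likewise not separated, and both lay above neurons.

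The shares of calls in each direction over all genes depend on how the arrays are centred. With each array centred on the median of the tested genes, 87.6% of the calls between the co-culture and precursors were higher, in place of 97.6%, and 41.4% of those between the co-culture and neurons, in place of 58.9%. That centring moved the median difference of all genes between the co-culture and neurons to -0.080, against 0.032 as deposited. The member counts in that comparison stayed at 1 higher and 8 lower.

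For the 5 members at least 2-fold apart between neurons and precursors, the co-culture level was placed on a linear scale from the precursor mean (0%) to the neuron mean (100%). This position, called the apparent neuron share, was 24.3% ± 0.46 for Gria1, 28.3% ± 5.68 for Gria3 and 17.8% ± 0.079 for Gria4 (SD over 3 co-culture arrays). It was 20.8% ± 0.58 for Grik1 and 19.8% ± 1.47 for Grik2. Over the 715 tested genes with a level 2-fold or more above precursors in neurons, the median was 22.4%, with quartiles at 19.0% and 26.0%. Gria1, Grik1 and Grik2 lay between these quartiles, Gria3 above them and Gria4 below, but Gria3 spanned 23.8% to 34.7% over arrays. Gria4 moved to 12.5% without precursor replicate 2, and to 20.2% and 19.8% without precursor replicates 1 and 3, which puts it inside the quartiles. Gria3 lay inside them too, at 25.3% with cyclic loess and 25.1% without co-culture replicate 2, while Grik2 lay outside, at 17.3% with cyclic loess; the quartiles are those of the deposited values. These positions carry no test, and their SDs leave out the spread of the neuron and precursor means. They do not give the fraction of neurons in the co-culture, because the precursor cultures also held RNA of neuron markers. Tubb3 averaged 11.96 in precursors and 11.95 in neurons, and Stmn2 12.02 and 12.85, although 6 of 7 neuron markers were higher in neurons.

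**Figure D4:**
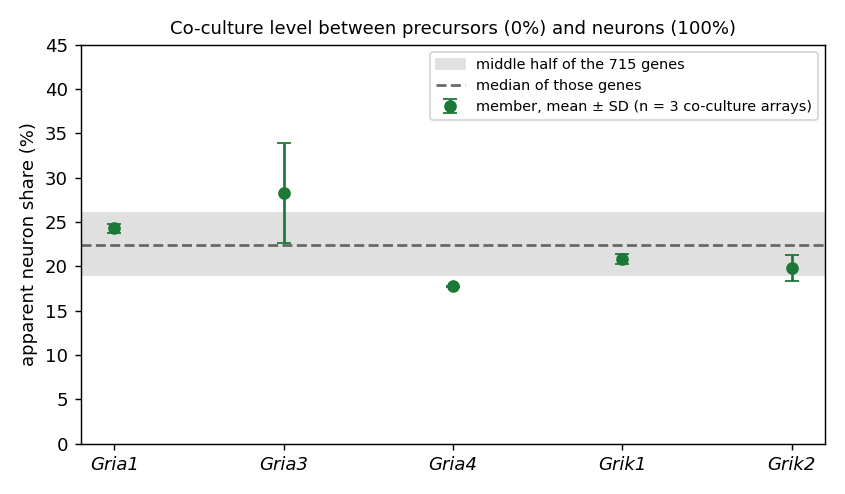
Apparent neuron share (vertical axis, percent) of the co-culture RNA for the 5 members at least 2-fold apart between neurons and precursors; points and bars are the mean ± SD over 3 co-culture arrays, the band spans the quartiles of the 715 background genes and the dashed line is their median. Gria1, Grik1 and Grik2 fall inside the band.

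Genes that work with these receptors were counted next, from lists chosen with earlier results of these data known. Auxiliary subunits sit beside AMPA receptors in the membrane and control their gating and transport. Of 12 such genes 10 were higher in neurons than in precursors and 0 lower (median 0.71), beside 28% and 35.2% of all tested genes. The count of lower genes was 0 at an unadjusted p under 0.05 too (limma). Shisa9 differed by 3.12, Cnih3 by 1.67, Cacng2 (stargazin) by 1.43 and Shisa7 by 1.41. Cacng2 has 2 probe sets, and its difference lay between 0.98 and 1.51 over the alternatives. Cacng5 (-0.015) and Gsg1l (-0.050) did not pass, but without neuron replicate 3 Gsg1l was called lower (-0.15, adjusted p = 0.0441). Between the co-culture and precursors 5 of the 12 were higher, beside 8.22% of all tested genes, led by Shisa9 at 1.24 and Cnih3 at 0.58. Both auxiliary subunits of kainate receptors were higher in neurons, Neto1 by 1.69 (adjusted p = 9.16e-09) and Neto2 by 0.76 (adjusted p = 1.45e-06).

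Genes for assembling, anchoring and moving the receptors were higher in neurons in 13 of 18 tested cases and lower in 3 (median 0.45). The lower ones were Dlg1 (-0.43), Arc (-0.26) and Gripap1 (-0.12). Only 2 were lower in several alternatives, among them the one without the filter. Over all tested genes 28% were higher and 35.2% lower. Olfm2 and Olfm3, which encode secreted proteins found in AMPA receptor complexes, differed by 1.44 and 1.42. Frrs1l, needed for early receptor assembly, differed by 0.97 and the anchoring protein gene Akap5 by 0.82. Of 7 genes linked to editing and splicing of receptor RNA 6 were higher and 1 lower, Nova1 at -0.49 (median 0.61). That list does not separate genes that raise editing from genes that lower it. Adarb1, the enzyme that edits Gria2 RNA, was higher by 1.14 (adjusted p = 3.05e-08), and Rbfox1, Adarb2 and Nova2 by 2.08, 1.44 and 0.61. Nova2 has 2 probe sets, and its difference lay between 0.46 and 0.71 over the alternatives. Array levels of this kind do not show whether a transcript was edited.

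Of 7 tested genes of glutamate release and uptake 3 were higher and 3 lower in neurons (median -0.016), beside 28% and 35.2% of all tested genes. The neuronal glutamate transporter Slc1a1 was higher by 2.12 and the vesicular transporter Slc17a7 by 0.36, whereas the glial and precursor transporter Slc1a3 was at -0.87 and the vesicular transporter Slc17a6 at -0.58. Among the other ionotropic glutamate receptors, the delta and NMDA subunits, 5 of 6 tested were higher and 1 lower (median 1.27), with Grin2a at 2.81, Grin2b at 2.19, Grin3a at 1.43 and Grid1 at 1.12. With the mean of a gene's probe sets 5 were called higher and 0 lower. Grin2b, with 2 probe sets, differed by 1.42 to 2.29 over the alternatives. Grin2a averaged 8.02 in neurons, 6.44 in the co-culture and 5.21 in precursors, with array medians of 6.75 to 6.79. It passed the filter only through the neuron arrays, so its call as higher is not separate from that filter. Grin3b lay under the filter.

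**Figure D5:**
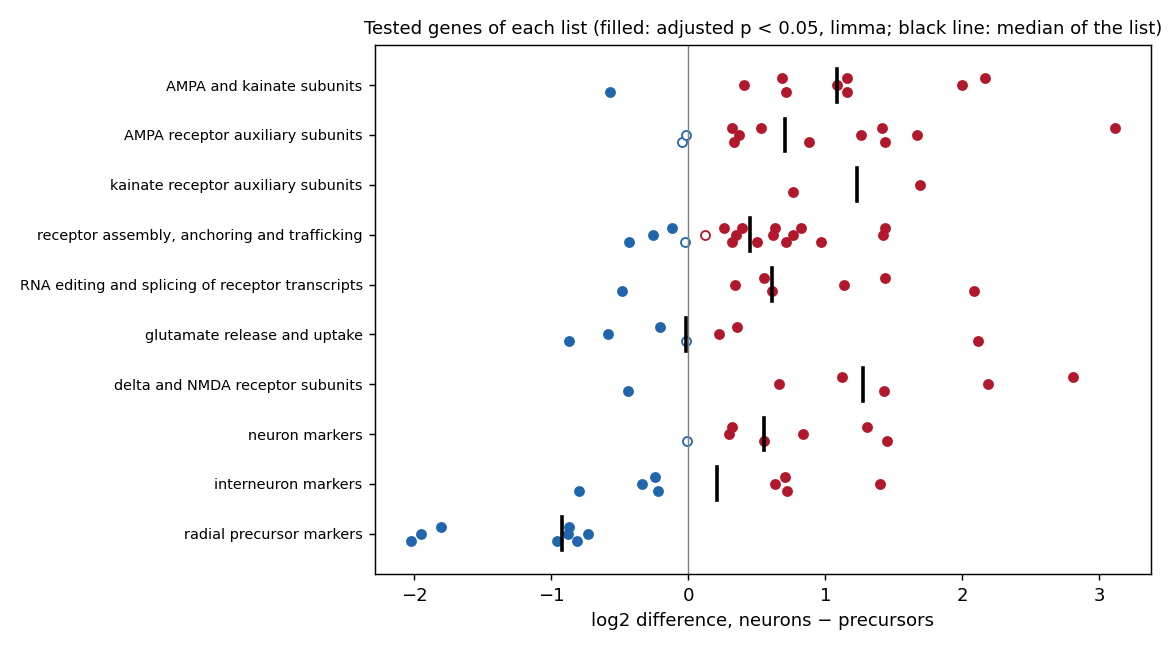
Log2 difference between neurons and precursors (horizontal axis) of every tested gene in the subunit set and in 9 lists; filled points have an adjusted p under the threshold in limma and black lines are medians. The medians of the subunits, their auxiliary subunits and the other ionotropic receptors lie above 0, with Grik3 among the points below 0, and all radial precursor markers lie below 0.

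The labelled cell types were checked against marker genes. Among neuron markers Syt1 was higher in neurons than in precursors by 1.45, Snap25 by 1.30, Stmn2 by 0.83 and Rbfox3 by 0.55, while Tubb3, a marker of young neurons, differed by -0.0083 and did not pass. Syt1 still averaged 10.5 in precursors, well above the array medians of 6.75 to 6.79. Of 5 tested markers of excitatory cortical neurons 2 were higher in neurons, Slc17a7 by 0.36 and Neurod6 by 0.30. Another 2 were lower, Tbr1 at -0.95 and Bcl11b at -0.41 (median over the 5 -0.100). Over all tested genes 28% were higher and 35.2% lower. Of 3 tested Cajal-Retzius markers 1 was lower, Ebf3 (-1.30), while Reln (0.051) and Trp73 (-0.31) did not pass. All 4 intermediate progenitor markers were lower. Of 8 tested interneuron markers 4 were higher in neurons and 4 lower, beside 28% and 35.2% of all tested genes. The higher ones were Sst by 1.40, Lhx6 by 0.72, Gad1 by 0.71 and Npy by 0.63. The lower ones were Dlx2 at -0.80, Dlx5 at -0.34, Gad2 at -0.25 and Dlx6 at -0.22. Precursor arrays spread widely for Lhx6 and Npy (SD 0.46 and 0.50). Only 2 of the 8 markers were lower with cyclic loess, with arrays centred on the tested genes or without precursor replicate 1. The summed log2 level of the 8 was 12.90 to 13.10 in the co-culture, 13.26 to 13.35 in neurons and 12.60 to 13.06 in precursors, and their part in the Grik1 and Gria4 results was not tested. Sst weighed most in that sum, with a mean of 12.27 in neurons and 10.87 in precursors. Some glial and vascular markers also differed. All 3 tested endothelial markers were lower in neurons (Cdh5 -1.21, Pecam1 -0.34 and Kdr -0.30), and their list's summed log2 level was 9.23 to 9.61 in the co-culture, 8.61 to 8.72 in neurons and 9.24 to 9.34 in precursors. Of astrocyte markers Aldoc was lower (-1.78) and Aldh1l1 higher (0.33, a call lost without precursor replicate 2 or 3), with a summed level of 10.86 to 10.95 in the co-culture, 9.69 to 9.93 in neurons and 10.87 to 11.04 in precursors. Of microglia markers Fcer1g (-1.01) and Tyrobp (-0.38) were lower and Aif1 higher (0.41), and only 1 of the 2 was called lower without neuron replicate 3 or without precursor replicate 1. Of 3 tested markers of oligodendrocyte precursors Olig2 was called lower (-0.30), a call not made under 9 alternatives. Gfap, Aqp4, S100b, Pdgfra, Sox10, Csf1r, P2ry12 and Cldn5, of the same lists, lay under the filter. The part of these cells in the members' results was not tested.

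The genes whose pattern was nearest to the 2 leading members were found by the distance over the 9 arrays between log2 values centred on each gene's own mean. Nearest to Gria1 were Met, a receptor tyrosine kinase gene (distance 0.14), Gda, which encodes guanine deaminase (0.144), and Grin2b, an NMDA subunit gene (0.164). Grin2b has 2 probe sets, and this distance is for the brighter one alone. Nearest to Grik1 were Lrrtm2, a synaptic adhesion gene (0.083), Khdrbs2, an RNA-binding splicing factor gene (0.174), and Cck, a neuropeptide gene (0.176). Grik1 held rank 20 among the genes nearest to Gria1, of 13012 tested, and Gria1 rank 28 among those nearest to Grik1. The other members were farther, at ranks from 481 for Grik2 against Grik1 to 11422 for Grik3 against Grik1. These distances mostly measure how alike the differences between groups are.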

How the data were processed

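RNA from 9 cultures, 3 in each of 3 groups, was measured on Affymetrix mouse gene arrays from 100 ng of total RNA, per the labels. The deposited values are log2 levels of probe sets; the submitters' processing notes name RMA and oligo, whose versions are not given in the sources used here. RMA gives neither read depth nor detection calls, and precision is limited by the number of arrays; array medians lay between 6.75 and 6.79. Of 41345 probe sets 23521 had 1 symbol in the platform table, 1814 several and 16010 none; the highest-mean probe set stood for each gene. The sources used here state no genome build for the array. Genes above the array median in at least 3 arrays were tested (13012) with limma 3.58.1 in R 4.3.3, with no block, and p-values were adjusted over all of them (Benjamini-Hochberg, threshold 0.05, two-sided). The fit was tested on simulated data. p-values measure the spread between cultures that the labels call biological replicates.

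The members, lists and tests were chosen with earlier results of these data known. Named genes are the 9 members, up to 4 called genes of each list with the largest difference between neurons and precursors, and the 3 genes nearest to the leading member of each family. Npy, Dlx5, Dlx6, Gad2, Tubb3, Cacng5, Gsg1l, Reln, Trp73, Dlg1, Arc, Gripap1, Nova1 and the genes under the filter were named after their values were seen. Slc17a7, Slc1a3 and Rbfox3 stand in 2 lists each. Deviations from the group means correlated between co-culture and precursor arrays of the same number (0.345, 0.300 and 0.161). Each co-culture array was closest to the precursor array of its own number. The same correlations were 0.0043, 0.134 and -0.148 between neurons and precursors, and -0.0051, 0.268 and 0.170 between neurons and co-culture. Co-culture replicates 2 and 3 were also closest to the neuron array of their own number, and replicate 1 was not. The labels name no pairing, and these values do not settle whether the numbers pair cultures.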

Additional observations from a re-analysis of the deposited data

How the results depend on the processing

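Across 18 alternatives, all 27 member differences kept their direction except Grik3 between the co-culture and precursors, which was 0.00895 with array weights and between -0.083 and 0.053 when single arrays were left out (above 0 without precursor replicate 1, 0.053, or co-culture replicate 2, 0.021). The alternatives were other filters, centring, cyclic loess, the mean of probe sets, array weights, the 2 groups alone, a replicate block and leaving out each array; centring on the tested genes was added after seeing the data. Between neurons and precursors, and between the co-culture and neurons, every member tested kept its call; Grik4 lay under the filter at the 75th percentile, which left 7 members in place of 8. Members higher in the co-culture than in precursors numbered between 4 and 6, through Gria2 and Gria4. The replicate block changed no member's call (Gria2 adjusted p = 0.0262, Gria4 0.128).

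Over all tested genes, 692 were higher in the co-culture than in precursors with arrays centred on the tested genes and 676 without co-culture replicate 2, in place of 1069. The lower count of 26 became 42 with the replicate block, 40 without the filter, 43 with the stricter filter, 57 with the 2 groups alone, 87 with array weights, 98 with arrays centred on the tested genes, and between 7 and 52 without single arrays (7 and 10 without co-culture replicates 1 and 2, 14 without precursor replicate 2, 52 without neuron replicate 2). Genes lower in the co-culture than in neurons numbered 4925 in place of 3236 with arrays centred on the tested genes. Under the stricter filter neurons against precursors gave 3 delta and NMDA subunits higher with 0 lower, and 1 gene of glutamate release and uptake higher.

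The apparent share of Gria1 was 22.3% with cyclic loess, that of Gria4 15.6%, of Grik1 20.1%, of Grik2 17.3% and of Gria3 25.3%; Gria4 was at 18.6% with arrays centred on the median of all probe sets. Without single arrays Gria1 lay between 23.7% and 24.8%, Gria3 between 25.1% and 30.7%, Gria4 between 12.5% and 20.2% and Grik1 between 20.1% and 21.6%. The cause of these shifts was not tested.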
